A study of Solanum lycopersicum and Solanum pennellii with 32 samples.

Results

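Gene expression was compared between root tips and root midsections of Solanum pennellii LA0716 (called Pennellii below), a wild relative of the cultivated tomato. The comparison used the Pennellii libraries with a total of 100000 counts or more, which were 11 of the 32 libraries of the series: 5 from tips and 6 from midsections. The tips were limiting-phosphate replicates 1, 2 and 4 and sufficient-phosphate replicates 1 and 3, and the midsections were limiting-phosphate replicates 1, 2 and 4 and sufficient-phosphate replicates 2, 3 and 4. Limiting tip replicate 3 and sufficient midsection replicate 1 held identical values in every gene and were left out, as were 3 further libraries below the depth minimum. The shallowest library kept, limiting midsection 2, held 137511 counts, and the deepest left out held 50571.

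All seedlings carried a 35S:TRAP construct, in which the broadly active 35S promoter drives a tagged ribosomal protein, and were 8 to 10 days old. They grew at 25 degrees Celsius with 12 hours of light on a medium with phosphate (sufficient) or with none added (limiting). Each replicate pooled 30 to 40 plants. A tip sample was a segment of 1 cm from the end of the root and a midsection about 2 cm taken midway along the root, and the 3' ends of transcripts in total RNA were sequenced. The set against which the Pennellii values were placed was Solanum lycopersicum M82, the cultivated species, with 16 libraries of the same 4 conditions.

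A root tip holds the root cap, the meristem where cells divide, and the zone where they begin to elongate. Farther from the tip, cells have stopped dividing and have differentiated, with root hairs or lateral roots outside, an endodermis with a Casparian strip, and a mature vascular system within. Phosphate is taken up along the root, and roots of many plants change their growth and their gene expression when it is scarce. In whole segments such as these, fewer cells of a type and less RNA per cell cannot be told apart.

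The files pair the gene IDs with no names or functions, and 0 of 34843 IDs matched the reference gene table, and genes appear below as IDs with no name, role or sequence. For the same reason no marker list of a root cell type could be filled, and the labelled positions were checked against genes that separate tip from midsection in M82.

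That check set the Pennellii tips apart from the Pennellii midsections by the tip genes, and set 1 library apart by the midsection genes. The tip genes were 144 IDs more than 8-fold higher in M82 tips than in M82 midsections (edgeR adjusted p under 0.05, mean level of 50 CPM or more; CPM are counts scaled to the same total in each library), and the midsection genes were 53 IDs as strongly lower in M82 tips. The choice rests on M82 libraries and used no Pennellii library. The tip genes summed to between 17739 and 20855 CPM (median 18707) in the 5 Pennellii tips, against 3454 to 11721 CPM (median 6522.5) in the 6 midsections. All tips lay above all midsections, and limiting midsection 1 was the highest of the midsections. In M82 the same genes summed to 29291 to 59717 CPM in tips and to 960 to 2523 CPM in midsections. They were chosen for a wide gap in these same M82 libraries, so the size of the gap was not compared between the species.

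The midsection genes summed to 4367, 4595, 4594 and 5729 CPM in limiting tips 1 and 2 and sufficient tips 1 and 3, and to 36280 CPM in limiting tip 4. The 6 Pennellii midsections held 9319 to 13683 CPM, so 4 tips lay below every midsection and limiting tip 4 above all of them. The 3 most abundant of these genes made up 42.4% of the sum in limiting tip 4, and the rest still summed to 20890 CPM. All 53 had a count in that library, with a median of 286 CPM, against 37.9 to 76.3 CPM in the other 4 tips and 60.2 to 119 CPM in the midsections. Limiting tip 4 also had the lowest scaling factor of the 11 libraries, 0.524. Results that rest on it are given with and without it, and what sets it apart was not tested. In M82, from whose libraries they were chosen, the midsection genes summed to 373 to 1894 CPM in tips and to 11261 to 18583 CPM in midsections.

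**Figure D1:**
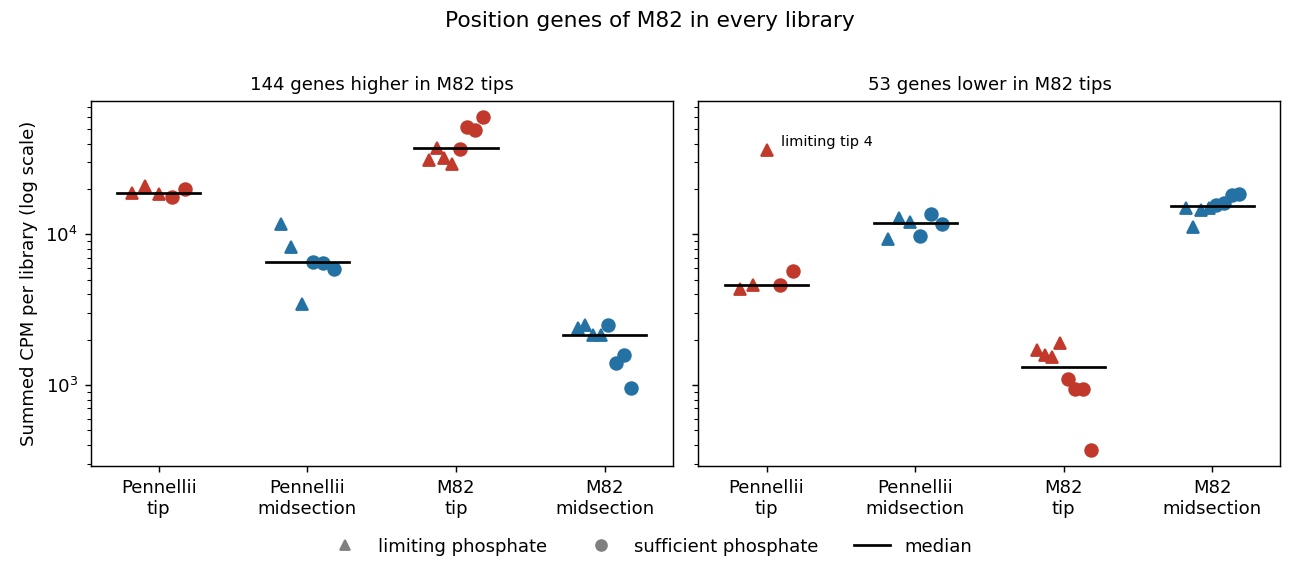
Summed CPM (log scale) of the 144 tip genes (left) and the 53 midsection genes (right) chosen in M82, in each of the 11 Pennellii libraries and the 16 M82 libraries. Points are libraries, triangles at limiting and circles at sufficient phosphate, and lines are medians. Pennellii tips lie above all Pennellii midsections for the tip genes, and limiting tip 4 lies at 36280 CPM for the midsection genes, against 5729 CPM or less in the other tips.

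Across all genes the Pennellii tips did not group together, whereas most midsections were closest to another midsection. Pearson correlations of log2 CPM over the 11692 genes tested had medians of 0.464 among the 10 pairs of tips, 0.509 among the 30 pairs of a tip with a midsection and 0.568 among the 15 pairs of midsections. Only 5 of the 11 libraries had their closest library at the same position, and all of these were midsections. Sufficient midsection 3, the deepest library, was the closest to limiting tips 2 and 4 and to sufficient tips 1 and 3. Sufficient midsections 3 and 4 and limiting midsection 4, of 4580524 to 13124725 counts, were alike, with correlations of 0.804 to 0.892. Limiting tip 1, with 4983619 counts, correlated with them at 0.581 to 0.66. Limiting midsection 1 was closest to limiting tip 1, at 0.689. Tips held 894656 to 4983619 counts and midsections 137511 to 13124725, and the part of this difference in depth in these values was not tested. In M82 the medians were 0.776 among tips, 0.653 between positions and 0.829 among midsections, and 16 of 16 libraries had their closest library at the same position.

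**Figure D2:**
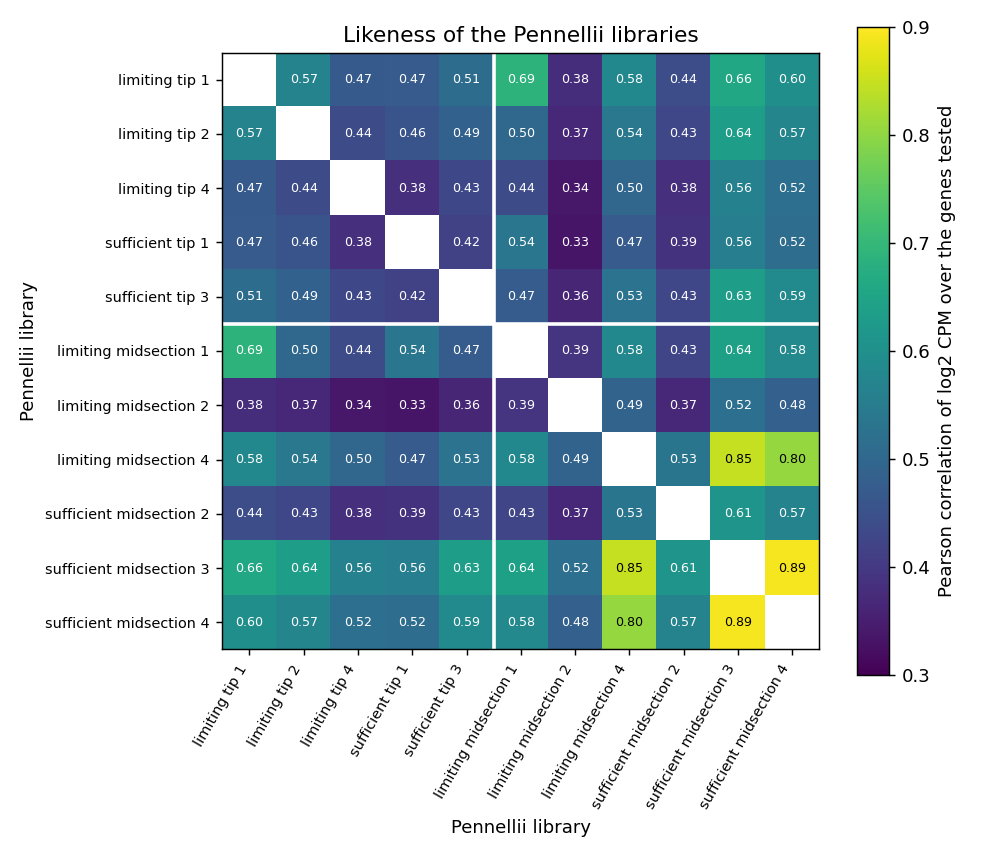
Pearson correlation of log2 CPM between each pair of the 11 Pennellii libraries, over the 11692 genes tested, with tips before midsections and white lines between the positions. The 3 deepest midsections are alike at 0.804 to 0.892, and the block of tips, at 0.384 to 0.568, is no brighter than the blocks between positions.

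Few single genes differed between Pennellii tips and midsections beyond the spread of the libraries. Of 11692 genes tested, 18 were called, 11 higher (0.0941% of the genes tested) and 7 lower (0.0599%) in tips, or 0.154% together. The test was edgeR's quasi-likelihood F test on 5 tips and 6 midsections, with phosphate as a covariate and Benjamini-Hochberg adjusted p under 0.05. All 18 differed by more than 2-fold and 12 by more than 8-fold. The spread was wide, with a common biological coefficient of variation of 1.09 in Pennellii and 0.626 in M82, and the median standard error of a log2 fold change was 1.22 in Pennellii and 0.429 in M82. The median absolute log2 fold change was 0.745 in Pennellii, below this standard error, and 0.661 in M82, above it. The likeness of these medians therefore does not show position differences of like size. M82 had 4980 calls among 16279 genes (30.6%). Other methods called more Pennellii genes: DESeq2 called 156 (60 higher, 96 lower; 1.33%) and limma-voom 175 (74 higher, 101 lower; 1.5%). With RLE in place of TMM scaling edgeR called 35, 13 higher and 22 lower, and the balance of directions therefore changed with the scaling and the tool.

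Single libraries decided how many genes passed. Without limiting tip 4 edgeR called 65 genes, 15 higher and 50 lower in the tip (0.52%), and 15 of them were among the 18. Without limiting midsection 1 it called 61, 39 higher and 22 lower, and 17 of them were among the 18. With both libraries left out it called 97, 38 higher and 59 lower, of which 16 were among the 18. The count was 34, 43 and 48 without limiting tip 1, sufficient tip 1 and sufficient tip 3, and 11 and 7 without limiting midsection 4 and sufficient midsection 2. Within sufficient phosphate 47 genes were called from 2 tips and 3 midsections, and within limiting phosphate 1, Solyc08g082190.3.1, from 3 tips and 3 midsections.

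**Figure D3:**
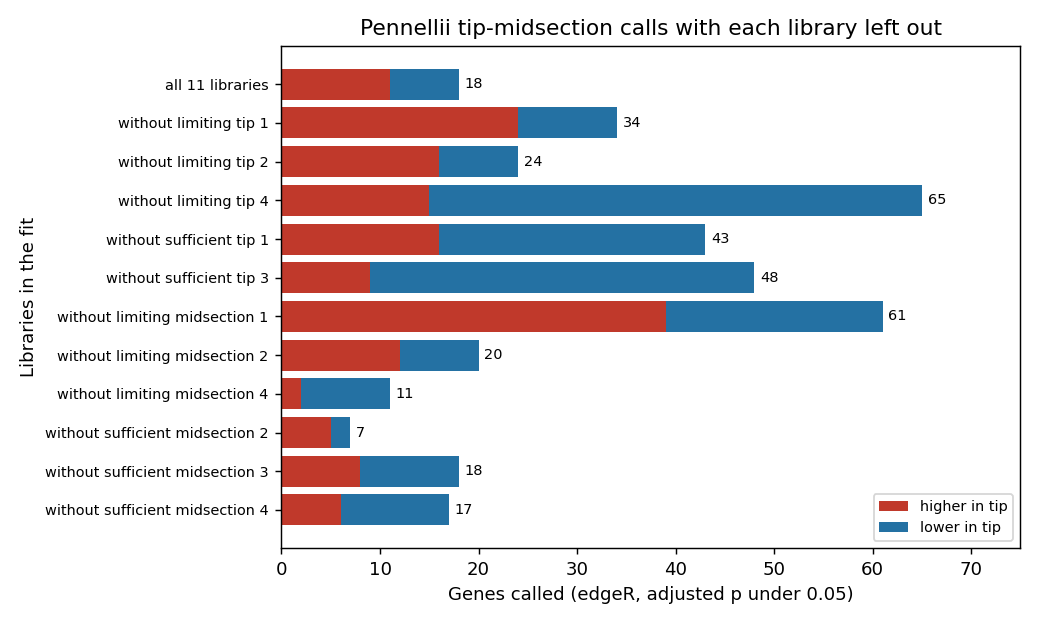
Genes called between Pennellii tips and midsections (edgeR, adjusted p under 0.05) with all 11 libraries and with each library left out, split into those higher (red) and lower (blue) in the tip. The total is 18 with all libraries and ranges from 7 without sufficient midsection 2 to 65 without limiting tip 4.

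Among the 18 called genes, the libraries of both positions did not overlap in 7, of which 5 were higher and 2 lower in the tip. Over all genes tested the positions did not overlap in 1.1%, with 0.77% higher and 0.334% lower in the tip. The 11 genes higher in the tip had log2 fold changes of 1.77 to 6.95, with a median of 3.18, and mean levels of 75 to 879 CPM over the 11 libraries. In 9 of these 11 the highest tip was limiting tip 4. Its scaling factor of 0.524, the lowest of the 11 libraries, raises its CPM in every gene. How often it was the highest tip over all genes tested was not counted, so the 9 are not read as a trait of the called genes. The 7 genes lower in the tip fell by 2.52 to 7.17 on the log2 scale, with a median of 3.81, and had mean levels of 41.8 to 2700 CPM. Of the IDs higher in the tip 4 of 11 begin with Solyc12, as do 6.65% of the genes tested. The genes described next are those with the largest rise and fall among called genes whose positions did not overlap and whose mean level was 50 CPM or more.

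Solyc12g049180.1.1 had the largest rise in the tip. It stood at 18.9, 77.1 and 477 CPM in limiting tips 1, 2 and 4 and at 40.1 and 201 CPM in sufficient tips 1 and 3, against 8.33 and 2.46 CPM in sufficient midsections 3 and 4 and no count in the other 4 midsections. Every tip lay above every midsection, and limiting tip 4 was the highest. The mean was 163 ± 189 CPM in tips (SD, n = 5) and 1.80 ± 3.35 CPM in midsections (SD, n = 6), and the log2 fold change was 6.95 ± 1.36 (SE; edgeR adjusted p 0.00273). Limiting midsection 2 and sufficient midsection 2 were shallow, and a count of 3 there corresponds to 21.8 and 6.45 CPM, so their zeros limit its level less closely. Its counts were fractional in 45.5% of the Pennellii libraries, and its level is uncertain. Without limiting tip 4 the log2 fold change was 6.22 (edgeR adjusted p 0.00952). The call ended without limiting midsection 4 (log2 fold change 5.75, edgeR adjusted p 0.0506) and, with fewer libraries, within sufficient (edgeR adjusted p 0.252) and within limiting phosphate (0.0551). With all 14 distinct Pennellii libraries the gene did not enter the test. In M82 it was rare, with a mean of 1.92 ± 2.81 CPM in tips and 0.0575 ± 0.119 CPM in midsections (SD, n = 8 each), and did not enter the M82 test.

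Solyc12g100110.1.1 was at 45.1, 172 and 994 CPM in limiting tips 1, 2 and 4 and at 35.7 and 215 CPM in sufficient tips 1 and 3. In midsections it was at 16.2, 0 and 1.01 CPM at limiting phosphate (replicates 1, 2 and 4) and at 0, 31.5 and 11.9 CPM at sufficient phosphate (replicates 2, 3 and 4). The positions did not overlap, but the lowest tip, at 35.7 CPM, was close to the highest midsection, at 31.5 CPM. The mean was 292 ± 400 CPM in tips (SD, n = 5) and 10.1 ± 12.5 CPM in midsections (SD, n = 6), and the log2 fold change was 4.65 ± 0.98 (SE; edgeR adjusted p 0.00969). The same direction was seen in M82, at 96.4 ± 26.7 CPM in tips and 5.73 ± 3.44 CPM in midsections (SD, n = 8 each; log2 fold change 4.14 ± 0.37, edgeR adjusted p 1.16e-09). The Pennellii call ended without limiting tip 4 (log2 fold change 3.57, edgeR adjusted p 0.106), without sufficient tip 3 (4.59, 0.0744), without limiting midsection 2 (4.06, 0.302) or 4 (3.73, 0.0896) and without sufficient midsection 2 (4.51, 0.0595). It also ended with libraries of 500000 counts or more (edgeR adjusted p 0.371), with all 14 distinct Pennellii libraries (0.13), without limiting tip 4 and limiting midsection 1 together (0.0719), and within sufficient (0.535) and limiting phosphate (0.0551). Counts of this gene were fractional in 90.9% of the Pennellii libraries, so its level is uncertain.

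Solyc11g020280.2.1 was close to 0 in Pennellii tips and was counted in all 6 midsections. It was at 0.928, 0 and 1.07 CPM in limiting tips 1, 2 and 4 and at 0 and 1.57 CPM in sufficient tips 1 and 3, which together held 9 counts. Midsections stood at 325, 59.2 and 67.5 CPM at limiting phosphate and at 126, 39.0 and 36.6 CPM at sufficient phosphate. Every midsection was above every tip, and limiting midsection 1 was well above the other midsections. The mean was 0.715 ± 0.695 CPM in tips (SD, n = 5) and 109 ± 111 CPM in midsections (SD, n = 6), and the log2 fold change was -7.13 ± 1.45 (SE; edgeR adjusted p 0.00338). The call ended within sufficient (log2 fold change -6.24, edgeR adjusted p 0.383) and within limiting phosphate (-7.75, 0.175), each with fewer libraries. With all 14 distinct Pennellii libraries the gene did not enter the test. In M82 the positions did not differ beyond their spread, at 7.38 ± 6.65 CPM in tips and 9.55 ± 7.79 CPM in midsections (SD, n = 8 each; log2 fold change -0.49 ± 0.66, edgeR adjusted p 0.633). The difference between the species was itself called, with a log2 difference of -6.60 and an edgeR adjusted p of 0.000829.

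Solyc08g082190.3.1 was the called gene with the smallest p. It was at 337, 277 and 823 CPM in limiting tips 1, 2 and 4 and at 926 and 479 CPM in sufficient tips 1 and 3. Midsections held 5200, 4020 and 5580 CPM at limiting phosphate and 4690, 4500 and 2870 CPM at sufficient phosphate, so the lowest midsection was more than 2-fold above every tip. The mean was 568 ± 291 CPM in tips (SD, n = 5) and 4480 ± 956 CPM in midsections (SD, n = 6), and the log2 fold change was -2.98 ± 0.34 (SE; edgeR adjusted p 1.02e-12). It was 7.88-fold higher by means in Pennellii midsections. It also passed with DESeq2 (adjusted p 1.48e-07) but not with limma-voom (adjusted p 0.122), the single alternative that ended this call. In M82 it stood at 448 ± 289 CPM in tips and 2550 ± 416 CPM in midsections (SD, n = 8 each; log2 fold change -2.59 ± 0.30, edgeR adjusted p 2.26e-06), and the difference between species was not called (edgeR adjusted p 0.75).

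**Figure D4:**
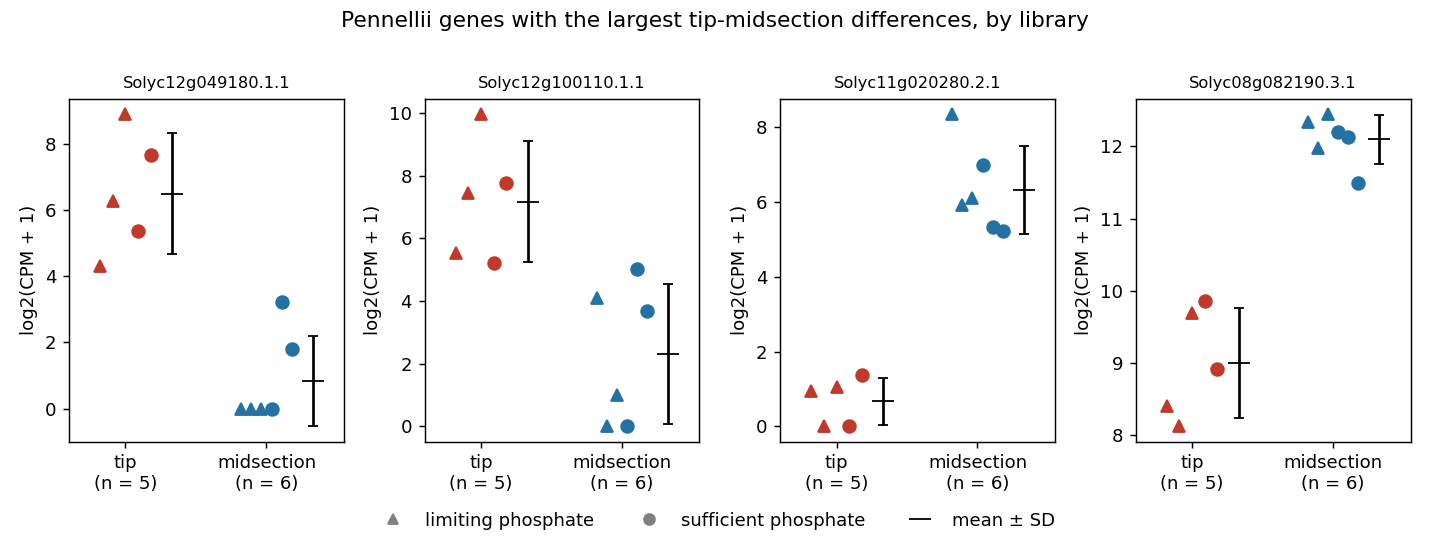
Levels of the 4 genes in each Pennellii library as log2(CPM + 1), tips (red, n = 5) left of midsections (blue, n = 6), with triangles at limiting and circles at sufficient phosphate. Bars are the mean and SD of the plotted values. In each panel the 2 positions do not overlap, and the closest pair is in Solyc12g100110.1.1, at 35.7 CPM in the lowest tip and 31.5 CPM in the highest midsection.

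The genes called in Pennellii mostly differed the same way in M82, with which they share no library. Of the 18, 16 were tested in M82, and 12 of these were called there in the same direction and 1 in the opposite direction. Of all 11414 genes tested in both species, 3960 were called in M82, 2058 higher and 1902 lower in tips. The 12 are 75% of the Pennellii calls tested in both species and 0.303% of the 3960 M82 calls tested in both. Without limiting tip 4, 42 of 60 Pennellii calls were called the same way in M82 and 4 the opposite way. Of the 12488 genes then tested in Pennellii, 4134 were called in M82 in either direction.

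Among all genes called in M82, whether called in Pennellii or not, most had the same sign in Pennellii. Of the 3960 genes called in M82 and tested in Pennellii, 68.1% had the same sign in Pennellii, against 53.8% of the 7454 genes not called in M82. The share was 76.0% for the 2058 genes higher in M82 tips, with a median Pennellii log2 fold change of 0.64 and a median M82 one of 1.35. It was 59.5% for the 1902 genes lower in M82 tips, with a median of -0.25 in Pennellii and -1.30 in M82. The order of these shares was not stable: they were 72.7% for genes higher and 70.7% for genes lower in M82 tips without limiting tip 4, 69.3% and 77.7% with limma-voom on all 11 libraries, and 68.6% each with all 14 distinct Pennellii libraries. Over all 11414 genes tested in both species Pearson's r between the fold changes was 0.282 and Spearman's rho 0.254. These are values across genes, which are not independent replicates, and the fold changes of one species share their libraries.

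**Figure D5:**
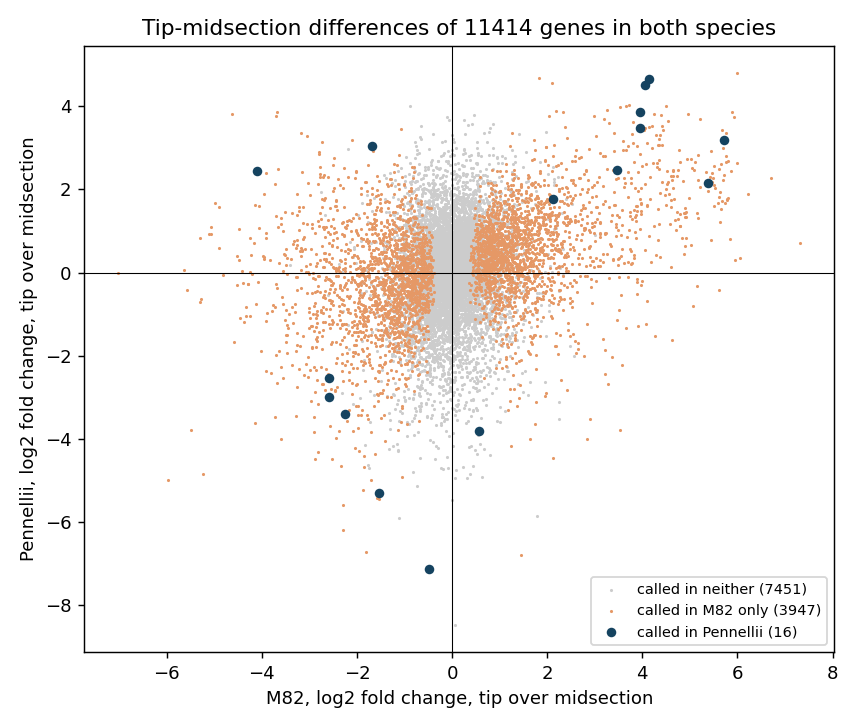
Log2 fold change of tip over midsection in Pennellii (vertical axis) against M82 (horizontal axis) for the 11414 genes tested in both. Orange points were called in M82 and not in Pennellii, and the 16 dark points were called in Pennellii. Dark points lie mostly in the upper right and lower left quadrants, where both species differ the same way.

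Of the genes with the widest position difference in M82, most tip genes kept their direction in Pennellii. The direction of the midsection genes depended on the libraries and the method. Of the 144 tip genes, 130 passed the low-count filter in Pennellii and 122 of these had a positive log2 fold change, with a median of 1.93, against a median of 0.10 over all genes tested. The test called 5 of the 130 higher in the Pennellii tip, against 0.0941% of all genes tested. Their median in M82, where they were chosen for a wide difference, was 4.47. Without limiting midsection 1 the median was 2.46 and 18 of 127 were called higher, against 39 of all 11481 genes tested. Of the 53 midsection genes, 51 passed the filter, and 31 had a positive and 20 a negative log2 fold change (median 0.06), and the balance turned with RLE scaling to 23 and 28 (median -0.05) and with limma-voom to 7 and 44 (median -1.27). edgeR called 0 of the 51, with 8 at an unadjusted p under 0.05 (7.01% of all genes tested). DESeq2 called 5 lower and 1 higher, against 96 lower and 60 higher of all 11692 genes tested. The limma-voom calls were 7 lower and 1 higher, against 101 lower and 74 higher of all 11692. Without limiting tip 4, 43 of 51 were negative with a median of -1.44 and 5 were called lower, against 50 of all 12488 genes tested. At sufficient phosphate, where that library plays no part, 40 of 51 were negative with a median of -1.19 and 5 were called lower, against 25 of all 12960 genes tested. At limiting phosphate 33 of 49 were positive with a median of 0.75 and 0 were called by edgeR (13 at an unadjusted p under 0.05, against 632 of all 11400).

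Whether the position difference depended on phosphate was tested in 15485 genes. The interaction was called in 10 (0.0646%), 6 with a higher (0.0387%) and 4 with a lower (0.0258%) tip-over-midsection difference at limiting phosphate (edgeR, adjusted p under 0.05). DESeq2 called 41 (0.265%), of which 1 was among the 10, and limma-voom called 0, with 786 genes at an unadjusted p under 0.05. The called genes with the largest changes were high in 1 or a few libraries and near 0 in most others. Solyc03g123410.1.1 had 810 CPM in limiting tip 4 and no count in limiting tips 1 and 2, 0 and 0.787 CPM in sufficient tips 1 and 3, no count in limiting midsections and at most 25.2 CPM in sufficient midsections. Solyc01g110360.3.1 had 666 CPM in limiting tip 4 and 0.309 CPM or less in the other 4 tips, with 0 to 8.29 CPM in limiting and 3.41 to 129 CPM in sufficient midsections. Both had a higher difference at limiting phosphate (edgeR adjusted p 0.0266 each), and both calls rested on limiting tip 4. Without it Solyc03g123410.1.1 no longer passed the low-count filter, and the log2 difference of Solyc01g110360.3.1 was 6.25, against 15.42 with it (edgeR adjusted p 0.881 without it). The fit then called 8 genes, the difference being higher at limiting phosphate in 1 and lower in 7, and 3 of these 8 were among the 10.

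On the other side, Solyc04g054475.1.1 had 827 CPM in limiting midsection 1, 3.84 CPM or less in the other 5 midsections, and 18.9 CPM in sufficient tip 1 with 0.309 CPM or less in the other 4 tips (edgeR adjusted p 1.07e-05). Solyc06g074570.1.1 had 343 CPM in sufficient tip 1 and 1.24 CPM or less in the other 4 tips, with 0.404 to 182 CPM in limiting and 2.52 to 3.82 CPM in sufficient midsections (edgeR adjusted p 0.0166). Where a group holds no or few counts the fitted change is no measure of size. None of the 10 calls remained without limiting midsection 1 (1063 genes at an unadjusted p under 0.05) or without sufficient tip 1 (897 such genes), which leaves 1 sufficient tip that is assumed to vary like the other groups. The count was 1 without sufficient midsection 3 or 4, 3 without sufficient tip 3, 6 without sufficient midsection 2, and 16 and 17 without limiting tip 1 and limiting midsection 2.

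Whether the position difference differed between the species was tested in 18291 genes, of which 447 were called, or 2.44% (edgeR, adjusted p under 0.05). The tip-over-midsection difference was higher in Pennellii in 165 (0.902%) and lower in 282 (1.54%). The count was 790 without limiting tip 1 of Pennellii. Solyc07g066360.1.1 was at 166, 286 and 289 CPM in limiting tips 1, 2 and 4 of Pennellii and 126 and 252 CPM in sufficient tips 1 and 3, against 0 to 72.2 CPM in its 6 midsections. The positions did not overlap in Pennellii, although its own test missed the threshold (log2 fold change 2.50 ± 0.83, edgeR adjusted p 0.259). In M82 the order was turned round, at 17.2 ± 17.2 CPM in tips and 128 ± 46.0 CPM in midsections (SD, n = 8 each; log2 fold change -3.65 ± 0.66, edgeR adjusted p 0.000421). The log2 difference between the species was 6.26 ± 0.93, with an edgeR adjusted p of 5.4e-05, and it passed in 36 of 36 alternatives.

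Solyc08g006850.3.1 showed no position difference beyond its spread in Pennellii, at 8.70 ± 5.62 CPM in tips (SD, n = 5) and 11.8 ± 7.71 CPM in midsections (SD, n = 6), with 3.70 to 17.6 CPM in tips and 4.00 to 25.3 CPM in midsections (log2 fold change -0.43 ± 1.37, edgeR adjusted p 0.997). In M82 it was at 589 ± 252 CPM in tips and 12.2 ± 7.26 CPM in midsections (SD, n = 8 each; log2 fold change 5.62 ± 0.36, edgeR adjusted p 4.67e-10). The difference between the species was -5.83 ± 0.69 on the log2 scale (edgeR adjusted p 3.12e-07) and passed in 36 of 36 alternatives. Solyc03g115380.2.1 was alike, at 13.6 ± 17.9 CPM in Pennellii tips (SD, n = 5) and 7.53 ± 6.74 CPM in Pennellii midsections (SD, n = 6), and at 431 ± 211 CPM in M82 tips and 2.93 ± 3.19 CPM in M82 midsections (SD, n = 8 each). Its log2 difference between the species was -6.68 ± 1.32 (edgeR adjusted p 0.00483) and passed in 35 of 36 alternatives. Its counts were fractional in 90.9% of Pennellii and 75% of M82 libraries. Pennellii reads that differ from M82 sequence can be lost in mapping, so levels were not compared between the species. Solyc08g006850.3.1 and Solyc03g115380.2.1 were low at both Pennellii positions. What a loss of reads does to a position difference at such levels was not tested. Whether reads of a near copy replace lost reads was not tested either.

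Solyc02g091560.3.1 had the largest positive log2 difference between the species among called genes with a mean of 50 CPM or more, and its size came from 1 library. It was at 2.16, 5.55 and 2840 CPM in limiting tips 1, 2 and 4 and at 29.0 and 139 CPM in sufficient tips 1 and 3, against 0 to 73.4 CPM in midsections, so the positions overlapped. Its position test in Pennellii missed the threshold (edgeR adjusted p 0.96). In M82 it stood at 17.6 ± 10.3 CPM in tips and 247 ± 112 CPM in midsections (SD, n = 8 each; edgeR adjusted p 1.89e-06). The log2 difference between the species was 7.33 ± 1.88 (edgeR adjusted p 0.0397) and missed the threshold in 19 of 35 alternatives. Without limiting tip 4 it was 3.14 (edgeR adjusted p 0.0325).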

How the data were processed

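The authors deposited 2 tables of estimated counts per gene ID, one per species, with 5.44% of the Pennellii values used here fractional. FastQC, Bowtie 1.2.2, limma and edgeR are the tools listed, per the submitters' processing notes. Which program counted the reads, on which genome build and annotation, is not given in these sources. The Pennellii table's name states that reads were mapped to M82. Per the labels' protocols, libraries were strand-specific 3' libraries (BrAD-seq) read as single reads of 50 bases, so no length correction was applied. Columns were matched to samples by the codes in their titles, and 0 were left unused.

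Counts were rounded and kept by filterByExpr (minimum count 10, total 15) and scaled by TMM. Tests used the quasi-likelihood F test of edgeR 4.0.16 in R 4.3.3 (robust, threshold 0.05). The test was also run on simulated counts with planted changes. The share it recovered is not reported here, so that run does not show how many changes the test misses. DESeq2 1.42.0 and limma 3.58.1 were alternatives. CPM uses TMM-scaled library sizes, except the list sums, which use total counts. SE is the log2 fold change over the square root of F. Replicates are biological per the design text. Reads carry no molecular identifiers, so CPM floors of 3 counts cover counting error only.

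Named genes were the 2 with the largest rise and the 2 with the largest fall among called genes with a mean of 50 CPM or more, without overlap between positions in the comparison of tip with midsection. The comparison, the lists and the rule were chosen with earlier results of these data known. The M82 position lists were chosen after the data were seen. The fixed pathway and marker lists could not be filled, because the IDs matched no name.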

Additional observations from a re-analysis of the deposited data

Results flagged for a closer look

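Of 20 groups of Pennellii libraries checked for a library far from the rest, 5 held one. The nominal rate of the rule used is about 1 in 20 groups. That rate was not measured here, and the groups share libraries. Most groups were levels of genes named for large differences in these same libraries. The count of 5 therefore cannot be judged against that rate. Limiting tip 4 stood far above the other tips in the summed level of the midsection genes (36280 CPM), in Solyc12g100110.1.1 (994 CPM) and in Solyc02g091560.3.1 (2840 CPM). The sum is scaled by total counts. The gene levels also carry the scaling factor of this library, 0.524, and were not checked for outliers without it. Among midsections, sufficient midsection 3 was high in Solyc12g049180.1.1 (8.33 CPM) and limiting midsection 1 in Solyc11g020280.2.1 (325 CPM). A count of 3 corresponds to 21.8 CPM in limiting midsection 2 and to 6.45 CPM in sufficient midsection 2. Their zeros in Solyc12g049180.1.1 therefore cannot show that 8.33 CPM is unusual.

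The interaction of position with phosphate was called by edgeR in 10 genes, but in 0 by limma-voom, with the replicate number as a block, without limiting midsection 1 or without sufficient tip 1 (786, 390, 1063 and 897 genes at an unadjusted p under 0.05), and DESeq2 shared 1 of the 10. The named ones had fitted log2 differences of 16.32 and 15.42 in Solyc03g123410.1.1 and Solyc01g110360.3.1 and of -16.73 and -12.14 in Solyc04g054475.1.1 and Solyc06g074570.1.1. These fitted values come from groups with few or no counts and are no measure of size. The position difference depended on species in 447 genes, with log2 differences of 7.33 in Solyc02g091560.3.1, 6.26 in Solyc07g066360.1.1, -6.68 in Solyc03g115380.2.1 and -5.83 in Solyc08g006850.3.1.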

How the results depend on the processing

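The 18 Pennellii calls became 35 with RLE scaling, 156 with DESeq2, 175 with limma-voom, 33 without a low-count filter, 53 (20 higher, 33 lower) with a filter of 5 CPM in 4 libraries, 3 with all 14 distinct Pennellii libraries, 47 and 1 within sufficient and limiting phosphate, and 97 without limiting tip 4 and limiting midsection 1, an alternative chosen after seeing the data. Leaving out 1 library gave 7 to 65. The median log2 fold change of all genes was 0.10 with TMM, 0.04 with RLE and -0.30 with limma-voom. The 10 interactions with phosphate became 18 (8 higher, 10 lower) with RLE scaling, 41 with DESeq2, 0 with limma-voom, 2 with libraries of 500000 counts or more, 35 with all 14 distinct libraries, 1 without both doubted libraries and 0 to 17 with 1 library left out; the median log2 change was 0.50 with TMM and 0.28 with RLE. M82 calls were 3272 and 3127 within sufficient and limiting phosphate, and 4530 to 5268 with 1 library left out. The 447 species differences became 1410 with DESeq2, 721 without a filter and 328 to 790 with 1 library left out. In deviations from group means, 3 of 10 pairs of Pennellii libraries with the same replicate number correlated above 0.1 (highest 0.173). Of 35 pairs with different numbers none did (highest 0.0853). The main fits used no pairing, and what the same-number libraries share was not tested. With the replicate number as a block the 18 calls became 12, of which 10 were among the 18. The other counts were then 0 for the interaction with phosphate (390 genes at an unadjusted p under 0.05), 4900 for M82 and 382 for the species difference. Over the 12 named genes no alternative turned a direction, and 69 of 299 alternatives ended a call. Alternatives in which a gene did not pass the filter or had no adjusted p are in neither number. The causes were not tested. Depth limits what can be seen: 3 counts correspond to 0.229 CPM in the deepest Pennellii library used and to 21.8 CPM in the shallowest.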

Other observations

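The Pennellii libraries left out of the comparison can be placed beside it by the genes that separate positions in M82. The tip genes summed to 30844 CPM and the midsection genes to 5467 CPM in sufficient tip 2 (46018 counts), and to 13578 and 8016 CPM in sufficient tip 4 (6225 counts). Limiting midsection 3 (38629 counts) held 12967 CPM of the tip genes and 7952 CPM of the midsection genes. The 2 identical columns, labelled limiting tip 3 and sufficient midsection 1, held 18400 CPM of the tip genes and 7118 CPM of the midsection genes.

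No gene with a count in every Pennellii tip was without a count in all midsections, and none with a count in every midsection was without one in all tips. Of 22978 IDs with a count in at least 1 of the 11 libraries, 4543 had one in all 11.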
